A study of Homo sapiens with 8 samples.

Results

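Distal stretches of open chromatin that had a peak in every EZH2 WT and EZH2 H689A/F667I library and in no library of the gain-of-function lines EZH2 Y641F and EZH2 A677G were described. Overlapping peaks of the 8 libraries on chromosomes 1 to 22 were joined into 98302 regions, of which 79072 lay over 1 kb from every transcription start site (TSS) of a protein-coding gene. Of these, 18441 had a peak in all 4 WT and H689A/F667I libraries, and 1088 of them (5.90%) had no peak in any of the 4 gain-of-function libraries. The 1088 regions were thus chosen by peak presence in all 8 libraries, so that their pattern, width and strength are a description and carry no test. A closed region here is one where no peak was called, and it may still hold signal.

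Chromatin accessibility was measured by ATAC-Seq, in which the Tn5 transposase cuts accessible DNA and the fragments are sequenced, in the human embryonic kidney line HEK293T. Each of the 4 stable lines carried an introduced EZH2, which was WT or had the change Y641F, A677G or H689A/F667I, with 2 libraries that the study calls independent biological replicates. In the study's terms, H689A/F667I is a loss-of-function (LOF) mutant, while Y641F and A677G are gain-of-function (GOF) mutants. The lines were made by lentiviral transduction and blasticidin selection, which the study describes as giving monoclonal populations, so a line may be 1 clone and an effect of the mutation cannot be told apart from one of the clone. The transgene was added to the EZH2 that HEK293T cells have of their own, in the WT line as well. The promoters of VIM, NEFL, NEFM, PAX2 and EYA1, genes active in HEK293 lines, held a peak in 8 of 8 libraries, and those of INA and ENO2 in 7. The promoters of PTPRC, CD3E, ALB, APOA1, MYH6 and INS, which mark other cell types, held a peak in 0. The lists give no read counts, so the depth is unknown. The number of peaks per library on chromosomes 1 to 22 was 62739 and 60420 in WT, 46317 and 47164 in H689A/F667I, 36744 and 44754 in A677G, and 25423 and 35380 in Y641F. Every GOF library thus had fewer peaks than every WT and LOF library, and its part in the absence of a peak was not tested.

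EZH2 is the catalytic subunit of Polycomb repressive complex 2 (PRC2), which places methyl groups on lysine 27 of histone H3. The trimethylated form, H3K27me3, marks silent genes, many of them developmental regulators, and is associated with compact chromatin. Open chromatin away from promoters often holds enhancers, insulators or other binding sites of transcription factors, and the gene that such a site acts on need not be its host or its nearest gene.

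To show what these regions look like, the reference sequence (hg38, plus strand) of the central 300 bp of the WT peaks is given for 2 of the 4 regions that ranked highest by their fold over background, averaged over the WT and LOF libraries. Capitals mark matches, on either strand, to any of 16 short motifs, each spelled out further on. The region at chr13:38662473-38662772 lay 24.3 kb from the TSS of FREM2, which encodes a basement membrane protein. That at chr9:85332537-85332836 lay 246.2 kb from AGTPBP1, which encodes an enzyme that trims glutamates from tubulin. Both were intergenic with respect to protein-coding genes.
near FREM2: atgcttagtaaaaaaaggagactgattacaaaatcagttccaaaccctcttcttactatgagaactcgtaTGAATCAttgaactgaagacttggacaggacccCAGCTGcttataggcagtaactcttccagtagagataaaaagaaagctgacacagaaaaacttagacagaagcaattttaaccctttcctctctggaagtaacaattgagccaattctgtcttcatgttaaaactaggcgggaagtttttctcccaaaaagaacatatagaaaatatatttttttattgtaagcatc
near AGTPBP1: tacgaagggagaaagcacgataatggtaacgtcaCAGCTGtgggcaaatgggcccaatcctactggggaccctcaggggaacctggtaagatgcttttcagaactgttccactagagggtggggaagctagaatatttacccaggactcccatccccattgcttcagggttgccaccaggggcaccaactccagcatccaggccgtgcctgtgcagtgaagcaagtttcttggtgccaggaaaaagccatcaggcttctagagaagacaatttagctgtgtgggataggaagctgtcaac

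The GC content of these windows was 35.7% near FREM2 and 52.3% near AGTPBP1. The capitals near FREM2 are an AP-1 motif (TGANTCA) and an E-box (CAGCTG). The window near AGTPBP1 held an E-box.

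Each closed region was paired with a kept region, that is, a non-promoter region with a peak in all 8 libraries and the nearest WT peak width. For the same 2 regions the kept partners, again as the central 300 bp of the WT peaks in hg38 on the plus strand, show the contrast in base composition. The partner of the FREM2 region lay in an intron of CDKL4, a kinase gene, at chr2:39227989-39228288. That of the AGTPBP1 region was intergenic at chr18:48446605-48446904, 35.8 kb from the TSS of ZBTB7C.
kept, CDKL4 intron: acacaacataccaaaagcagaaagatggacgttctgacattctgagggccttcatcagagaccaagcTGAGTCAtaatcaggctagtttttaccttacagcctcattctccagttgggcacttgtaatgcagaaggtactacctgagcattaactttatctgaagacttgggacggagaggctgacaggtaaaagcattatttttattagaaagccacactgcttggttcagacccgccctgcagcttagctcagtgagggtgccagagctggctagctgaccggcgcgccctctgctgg
kept, near ZBTB7C: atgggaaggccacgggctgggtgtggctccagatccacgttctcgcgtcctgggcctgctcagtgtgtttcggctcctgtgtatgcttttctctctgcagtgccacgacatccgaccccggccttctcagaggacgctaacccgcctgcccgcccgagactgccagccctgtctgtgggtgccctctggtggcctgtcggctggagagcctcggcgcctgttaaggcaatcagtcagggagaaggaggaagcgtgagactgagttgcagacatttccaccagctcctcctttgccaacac

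The GC content of the kept partners was 49.0% in CDKL4 and 62.0% near ZBTB7C, above that of the closed region in both pairs. The kept window in CDKL4 had an AP-1 motif, so this motif was present in windows of both kinds.

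The peaks of the closed regions were narrow, of middling fold among all peaks, and by their medians weaker than those of the kept regions. Fold is the pileup of fragments over the local background, as the authors' peak caller gave it. At the FREM2 region the fold was 7.85 and 6.21 in the WT libraries and 5.59 and 7.04 in the H689A/F667I libraries. At the region nearest to the TSS of TMEFF2, a transmembrane protein gene, the fold was 5.25 and 6.25 in WT and 6.26 and 5.15 in H689A/F667I. The libraries of both lines overlapped at each of these regions, and no GOF library had a peak. At the AGTPBP1 region it was 5.91 and 6.55 in WT and 4.50 and 5.88 in H689A/F667I, so that here both H689A/F667I values were below both WT values.

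The next regions in rank were spread over the genome and over gene classes. One lay in an intron of SLCO5A1, an organic anion transporter gene, with a fold of 5.65 and 5.62 in WT and 4.71 and 4.80 in H689A/F667I. Another lay 250.9 kb from TSHZ3, a zinc finger transcription factor gene, with a fold of 7.12 and 5.48 in WT and 4.68 and 4.71 in H689A/F667I. At both, the H689A/F667I peaks were weaker than either WT peak. A region in an intron of AGAP1, which encodes a GTPase-activating protein of membrane trafficking, had a fold of 5.28 and 4.77 in WT and 4.82 and 4.69 in H689A/F667I. A further 3 of the 10 highest regions lay 107.1 kb from RPL34, 10.6 kb from CFAP97D2 and 14.9 kb from CACNG8. The fold of these 3 was 4.71 to 6.14 in WT and 4.41 to 5.22 in H689A/F667I.

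Over all 1088 closed regions, the median fold was 3.64 and 3.74 in the WT libraries and 3.55 and 3.61 in the H689A/F667I libraries. The 1088 kept regions of the same WT width had median folds of 4.83 and 4.78 in WT and 4.40 and 4.46 in H689A/F667I. The difference in fold was −1.20 and −1.05 in the respective WT libraries, and −1.10 by the mean fold of both in each region. Between the WT libraries themselves the median fold of the closed regions differed by less, 3.64 against 3.74. The median −log10 q, the peak caller's adjusted significance, was 3.03 and 3.14 in WT and 2.44 and 2.54 in H689A/F667I for the closed regions. The kept regions of the same width had 6.94, 6.63, 4.83 and 5.16. The middle 50% of −log10 q of the 2 sets did not overlap in any of the 4 libraries. In the 4 GOF libraries the kept regions had median folds of 3.85 and 4.18 (Y641F) and 4.24 and 4.24 (A677G).

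**Figure D1:**
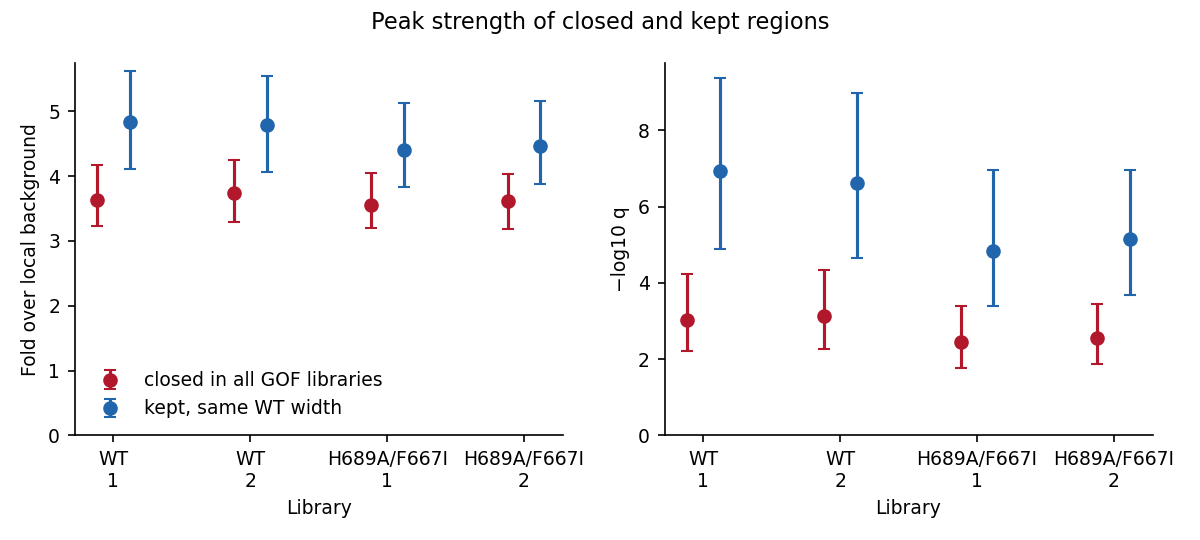
Median (point) and quartiles (bars) of fold over local background (left) and −log10 q (right) in the WT and H689A/F667I libraries, for the 1088 regions closed in all GOF libraries and 1088 kept regions of the same WT width. The closed regions are lower in all 4 libraries, with a median fold of 3.55 to 3.74 against 4.40 to 4.83.

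The fold of the closed regions was near the middle of all peaks, while their width was low. Their median −log10 q was lower than that of all peaks, at 3.03 and 3.14 against 3.71 and 3.77 in WT. In H689A/F667I it was 2.44 and 2.54 against 3.42 and 3.45. Among all non-promoter regions open in WT and LOF the median WT fold was 4.25, against 3.72 in the closed regions. In WT replicate 1 their median fold stood at percentile 46.7 of all peaks of that library and their median width at percentile 36.8. In WT replicate 2 the percentiles were 48.5 and 33.8, and in the H689A/F667I libraries 40.7 and 43.7 for fold against 27.8 and 24.9 for width. The median WT width was 386.5 and 365 bp in the closed regions against 752 and 751 bp in all 7407 kept regions, a difference of −365.5 and −386 bp in the respective libraries. By the mean width of both WT libraries in each region, the medians were 405 and 754.5 bp, a difference of −349.5 bp. The narrowest closed peaks were 200 bp wide and the widest in WT 2159 bp.

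Between WT and H689A/F667I the fold of the closed regions differed little, and their width was somewhat lower in H689A/F667I. The rule asks for a peak in both lines, so regions whose H689A/F667I signal fell below the threshold were left out. The likeness in fold is thus partly set by the choice. The median log2 ratio of H689A/F667I over WT was −0.03 and −0.05 for fold and −0.21 and −0.19 for width, in replicates 1 and 2. In the kept regions of the same width these values were −0.10 and −0.10 for fold and −0.13 and −0.09 for width. In all kept regions, which were wider, they were −0.06 and −0.06 for fold and −0.20 and −0.18 for width. Between the WT libraries the median log2 ratio of replicate 2 over replicate 1 was −0.01 for width and 0.02 for fold in the closed regions. Single regions varied more, with a median absolute log2 ratio of 0.44 for width between the WT libraries. In the kept regions of the same width this ratio was 0.24.

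Most closed regions passed the authors' threshold by little in at least 1 library. The lowest −log10 q of the 4 libraries had a median of 1.88 over the closed regions, with a range of 1.06 to 5.99, against a median of 3.92 over the kept regions of the same width. A value of 2 or more in all 4 libraries was found for 465 closed (42.7%) and 979 kept regions (90.0%), and a value of 5 or more for 6 and 346. On the TSS rule, the region just inside lay 1004 bp from the TSS of JUNB and the one just outside 976 bp from that of ZNF778. A further 141 regions with the same pattern lay within 1 kb of a coding TSS, of 13578 such regions with a peak in all WT and LOF libraries (1.04%).

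The share of regions closed in all GOF libraries fell with the size of the WT peak. Of the 18441 regions, split into 10 equal bins, the bin of narrowest WT peaks (median 272 bp) had 336 closed regions, 18.2% (95% Wilson interval 16.5 to 20.04), and the bin of widest peaks (median 1328.75 bp) had 25, 1.36% (0.920 to 1.99). The background over all bins was 5.90%. By WT fold the share was 11.98% in the lowest bin and 0.759% in the highest. By the product of width and −log10 p it was 23.7% (437 regions) and 0.0542% (1 region). These intervals cover counting error only, since regions of the same libraries are not replicates.

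**Figure D2:**
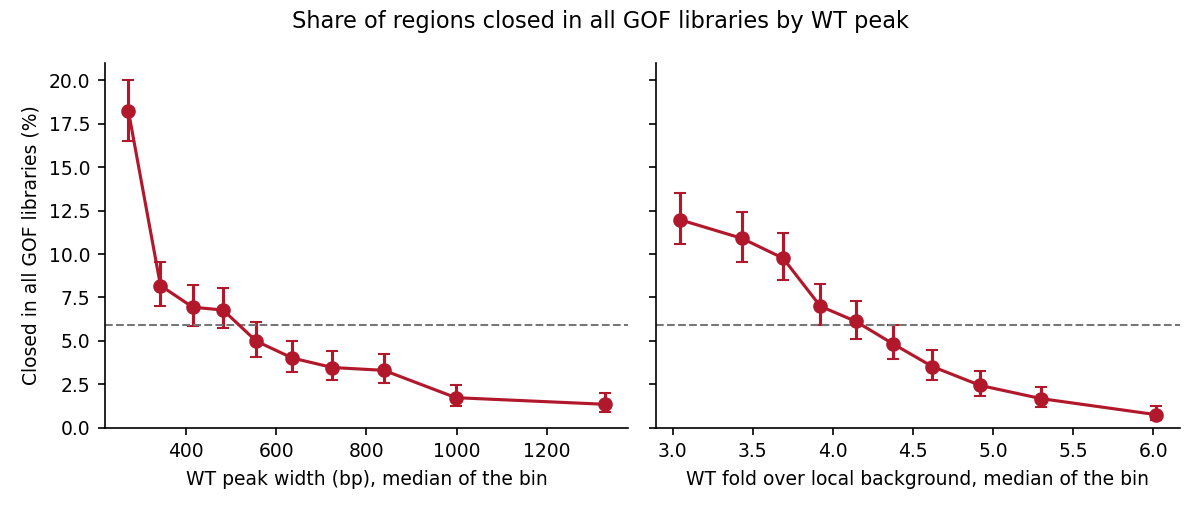
Share of non-promoter regions open in WT and LOF that were closed in all GOF libraries, in 10 equal bins of WT peak width (left) and of WT fold (right), with 95% Wilson intervals. The dashed line is the background of 5.90%, and the share falls from 18.2% to 1.36% with width and from 11.98% to 0.759% with fold.

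The closed regions stood at the end of a gradation over the number of GOF libraries with a peak. Of the 18441 regions, 2169 had a peak in 1 GOF library, 3267 in 2, 4510 in 3 and 7407 in 4. The median WT width was 405 bp with 0 GOF libraries, and 450.5, 492.5, 561.25 and 754.5 bp with 1 to 4. The median WT fold was 3.72, 3.88, 4.03, 4.25 and 4.61 in the same order. Width, fold and the number of open GOF libraries thus rose together at each step. Of the 2169 regions with a single GOF peak, 1229 had it in A677G replicate 2, 490 in A677G replicate 1, 375 in Y641F replicate 2 and 75 in Y641F replicate 1, which is the order of these libraries by number of peaks.

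Both GOF lines entered the pattern unequally. Regions without a peak in either Y641F library made up 4439 of the 18441 (24.1%), and those without a peak in either A677G library 1626 (8.82%). The 1088 closed regions were thus 24.5% of the former and 66.9% of the latter. The rule fixes this overlap, and nothing is read from it.

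To see how far the choice held in libraries it did not use, regions were chosen on replicate 1 of each line alone and read in replicate 2, and the reverse. On replicate 1, 7263 non-promoter regions were open in WT and LOF and closed in both GOF lines. In replicate 2, 44.3% of them (43.1 to 45.4) were closed in both GOF lines, against 18.4% of all 23971 regions open in WT and LOF of replicate 1 and 23.6% of such regions at the same WT width. Chosen on replicate 2, 4456 regions were closed in both GOF lines of replicate 1 in 73.0% (71.7 to 74.3), against 30.3% of all 24127 and 38.6% at the same WT width. The chosen regions also lacked a peak more often in the lines where they had been chosen for having one. In replicate 2, 43.2% lacked a peak in H689A/F667I, against 25.3% at the same WT width, and 20.2% lacked one in WT, against 11.3%. In replicate 1 these shares were 54.5% against 27.2% in H689A/F667I and 24.4% against 10.8% in WT. The excess over regions of the same width was thus present in all 4 lines. Read in replicate 2, it was 26.9 points in Y641F, 23.01 in A677G, 17.9 in H689A/F667I and 8.94 in WT, or 1.58, 1.74, 1.71 and 1.79 times the share at the same width. Read in replicate 1, it was 24.2, 33.1, 27.3 and 13.7 points, or 1.35, 1.76, 2.00 and 2.27 times. At the same width the excess was thus smallest in WT in points and largest there as a ratio. A ratio has less room to rise where the share at the same width is high. Read in replicate 1, that share was 69.4% in Y641F and 10.8% in WT. The order of the lines thus depends on the scale, and nothing is read from it. At the same product of width and −log10 p in WT, the share closed in both GOF lines was 29.7% and 48.4%, which lay between the chosen regions and those of the same width. By that standard the ratios in Y641F, A677G, H689A/F667I and WT were 1.32, 1.40, 1.36 and 1.34 read in replicate 2, and 1.19, 1.42, 1.55 and 1.62 read in replicate 1, so WT was largest only in the latter.

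**Figure D3:**
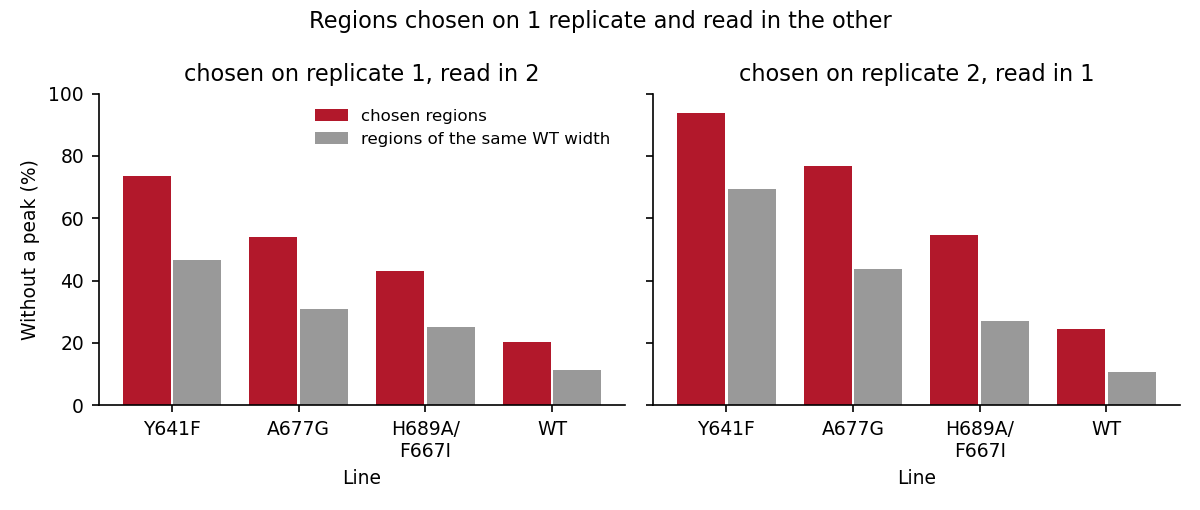
Share of regions without a peak in each line of the replicate not used for choosing (red), for regions chosen on replicate 1 and read in replicate 2 (left) and the reverse (right), beside all regions open in WT and LOF of the choosing replicate at the same WT width (grey). The red bars are higher in all 4 lines, GOF and not: 73.7% against 46.7% in Y641F and 20.2% against 11.3% in WT on the left.

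Each library was also predicted from the other 7. Of the 1163 regions with the pattern in the other 7 libraries, 93.6% were closed in Y641F replicate 1, against 51.8% of the 18441 regions. This share was 74.4% in Y641F replicate 2, 68.9% in A677G replicate 1 and 47.0% in A677G replicate 2, against 28.3%, 23.9% and 14.7%. For the WT and H689A/F667I libraries the comparison was with non-promoter regions that had a peak in the remaining WT and LOF libraries. These numbered 19136 and 19240 for WT, and 22290 and 21982 for H689A/F667I. A peak was present in 81.5% and 79.2% for the WT libraries, against 96.4% and 95.8%. For the H689A/F667I libraries it was present in 46.3% and 48.2%, against 82.7% and 83.9%. So a region with the pattern in 7 libraries had a peak in the left-out H689A/F667I library in under 50% of cases.

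The GOF libraries held fewer peaks, and the pattern was therefore read again with the 25423 strongest peaks of each library by −log10 p. Then 134 of 6868 regions (1.95%) had the pattern. Of the 1088 closed regions, 52 (4.78%) kept it, and these were 38.8% of the 134, while 475 had no peak left in any WT or LOF library. A closed region has no GOF peak to gain here, so keeping the pattern depended only on the strength of its WT and LOF peaks. All 10 of the highest-ranked regions were among the 52. They were ranked on fold in those same libraries, so nothing is read from this or from the fold of the 52. The 52 had a median WT width of 292 bp, a median fold of 4.77 and a median GC content of 46.7% (45.0 to 50.3), and 27 were intergenic, 19 intronic and 6 exonic.

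The closed regions were poorer in GC than kept regions of the same width. GC content was read from the reference in the 300 bp at the centre of the WT peaks, which the rule did not use. The median was 47.0% (95% order-statistic interval 46.7 to 47.7) in the closed regions and 50.7% (50 to 51.0) in the kept regions, a difference of −3.67 percentage points. When peaks needed a −log10 q of 5 or more, the difference was −1 point. The 95% interval of the closed median, taken less the kept median, then ran from −2.67 to 1 and included 0. It leaves out the error of the kept median. Over all 18441 regions the median was 49.7%. The values of single regions overlapped widely, with quartiles of 41.7 and 53.1% in the closed and 45.0 and 56.7% in the kept regions. Windows without any CpG numbered 71 (6.53%, 5.21 to 8.15) and 44 (4.04%, 3.03 to 5.39). Both regions printed above were poorer in GC than their partners, but the regions near CFAP97D2, with 59.3% against 45.3%, and near CACNG8, with 50.3% against 41.7%, exceeded theirs.

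GC content rose with the number of GOF libraries with a peak as well, with medians of 47.0, 48.0, 49.0, 50.3 and 51.0% from 0 to 4. The share closed in all GOF libraries was 7.32% in the bin of lowest GC and 2.28% in that of highest GC, of 10 equal bins. It was flat, 7.32 to 7.86%, over the 5 bins of lower GC and lower in each bin above them. Among regions narrower than the median the share was 13.2, 9.89, 7.46 and 5.55% from the lowest to the highest of 4 GC bins. Among the wider regions it was 3.95, 3.17, 3.04 and 0.954%. The order by GC was therefore present at both widths. GC content affects the yield of amplified libraries, and its part in these shares was not tested. With kept regions matched on the product of width and −log10 p in place of width, the difference in GC was −2.33 points.

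**Figure D4:**
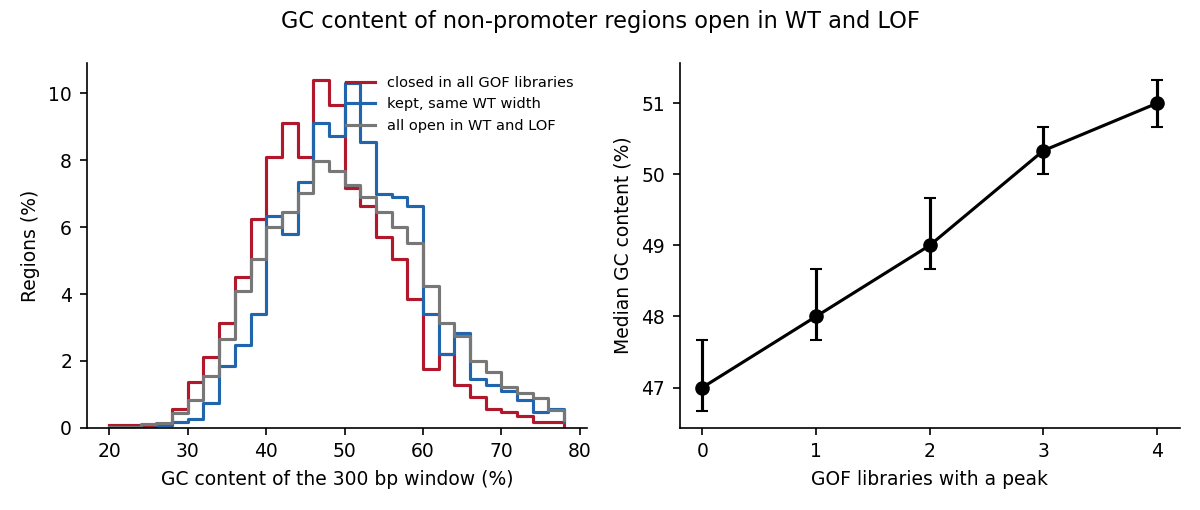
Left, distribution of GC content in the central 300 bp of the WT peaks, in bins of 2 percentage points, for the closed regions, the kept regions of the same WT width and all regions open in WT and LOF. Right, median GC content with its 95% interval by the number of GOF libraries with a peak, rising from 47.0% to 51.0%.

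Short motifs were counted in the same 300 bp windows, on both strands, with the list of motifs written after the files had been seen. AP-1 (TGANTCA) was present in 12.04% of closed, 12.5% of kept and 11.4% of all 18441 windows. TEAD (CATTCC) was present in 18.0, 17.8 and 17.1%, ZIC (CAGCAGG) in 17.2, 18.1 and 16.5%, and posterior HOX (TTTATGG) in 6.16, 5.88 and 5.74%. For these 4 the intervals of closed and kept windows overlapped. The AT-rich homeodomain motif (TAATTA) was present in 7.35% (5.95 to 9.06) of closed and 4.32% (3.26 to 5.70) of kept windows, but in 6.87% of all windows. SOX (AACAATG) was present in 5.06, 3.13 and 3.98%. The CTCF core motif went the other way. CTCF core (AGGGGGC) was present in 9.38% (7.78 to 11.3) of closed, 14.2% (12.3 to 16.4) of kept and 11.7% of all windows. SP/KLF (GGGGCGG) was present in 4.23, 6.34 and 8.36%, the E-box (CAGCTG) in 15.6, 19.5 and 19.4%, and ETS (CCGGAAG) in 1.47, 2.67 and 2.35%. For SOX, SP/KLF, the E-box and ETS the intervals of closed and kept windows overlapped. The closed interval of SP/KLF was 3.18 to 5.59, below the 7.97 to 8.77 of all windows. That of the E-box was 13.6 to 17.9, below 18.8 to 19.95. The kept interval of SP/KLF, 5.04 to 7.95, was below that of all windows as well. For SOX and ETS the intervals of closed and all windows overlapped.

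The remaining motifs were that of GATA factors (AGATAAG) in 6.34, 5.15 and 5.64%, RUNX (TGTGGTT) in 6.43, 6.62 and 5.57%, TCF/LEF (ATCAAAG) in 4.04, 3.68 and 3.75%, CRE (TGACGTCA) in 0.184, 0.643 and 0.385%, and the SMAD palindrome (GTCTAGAC) in 0.368, 0.184 and 0.239%. A stretch common in Alu elements, the most abundant short interspersed repeats of the human genome (TGTAATCCC), was present in 3.31% of closed, 2.48% of kept and 2.80% of all windows, with overlapping intervals for closed and kept. Reads from repeats are harder to place, and the authors' filter on mapping quality is not given in the sources used here. Matches of different motifs can overlap in a window. Each motif was counted only in the spelling given, so sites spelled otherwise, those of CTCF included, were not counted or marked. These matches follow letters and base composition, and nothing is read from them about binding.

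The closed regions lay where other distal open regions lay. Of the 1088, 424 (39.0%, 36.1 to 41.9) were in introns of protein-coding genes, 586 (53.9%) were intergenic and 78 (7.17%) overlapped an exon. Of the kept regions of the same width 403 (37.0%, 34.2 to 40.0) were intronic, 627 (57.6%) intergenic and 58 (5.33%) exonic. Among the intergenic regions, 157 (26.8%) and 166 (26.5%) lay in a long noncoding RNA gene. The median distance to a coding TSS was 26.2 kb, with quartiles of 8.81 and 76.9 kb, against 22.9 kb in the kept regions of the same width and 26.3 kb in all kept regions. Within 1 kb of a TSS of another gene type lay 79 (7.26%) and 114 (10.5%). The intronic share was 39.0% with 0 GOF libraries, 43.0, 41.6 and 39.5% with 1 to 3 and 34.3% with 4, so it did not change in 1 direction. Against kept regions matched on the product of width and −log10 p the intronic share was lower, at 39.0% against 40.7%.

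The closed regions lay farther from regions that stayed open. The nearest region with a peak in all 8 libraries, promoters included, was a median of 39.2 kb away, against 31.5 kb for the kept regions of the same width and 34.7 kb for all 18441. It lay within 10 kb of 163 closed (15.0%, 13.0 to 17.2) and 250 kept regions (22.98%, 20.6 to 25.6). Grouping was read as the share of closed regions near another one. Within 100 kb of another closed region lay 115 (10.6%, 8.88 to 12.5), in 55 groups, of which 3 had 3 or more regions. Of the 1088 kept regions of the same width 181 (16.6%, 14.5 to 19.0) lay within 100 kb of another of their set, in 86 groups. The share was lower in the closed than in the kept regions here, at 4.89% against 6.12% with a −log10 q of at least 5, and at 10.6% against 13.4% where kept regions were matched on the product of width and −log10 p. With an equal number of peaks the order turned, at 1.49% against 0%.

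The largest group, of 5 closed regions over 233.4 kb, ran from an intron of NUP133, which encodes a nuclear pore protein, past ABCB10, a mitochondrial transporter gene, to 64.2 kb from the TSS of URB2, a ribosome biogenesis gene (chr1:229482107-229715499). It held 9 regions open in WT and LOF, of which 0 were open in all 8 libraries. The fold of its 5 members was 3.10 to 4.12 in WT and 2.84 to 4.31 in H689A/F667I. None was among the 52 regions that kept the pattern at an equal number of peaks.

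The other groups had 3 closed regions each. One lay at chr12:54527132-54690347, from an intron of NCKAP1L, a blood-cell actin regulator, past LACRT and DCD, which encode the secreted proteins lacritin and dermcidin. Here 3 of 7 regions had no peak in any GOF library and 1 was open in all 8. The strongest of the 3, 41.6 kb from DCD, had a fold of 4.27 and 6.24 in WT and 4.61 and 4.74 in H689A/F667I. The other group lay at chr20:31517391-31608754, with 2 regions in introns of HM13, which encodes signal peptide peptidase, and 1 at 3.10 kb from ID1, an inhibitor of basic helix-loop-helix factors. The region near ID1 was the weakest, with a fold of 1.96 and 1.97 in WT and 2.24 and 2.45 in H689A/F667I, and had a GC content of 70.3%. In this group 3 of 6 regions belonged to the closed set. All these groups were picked for holding 3 or more closed regions. Their high shares beside the 5.90% over all regions follow from that choice, and nothing is read from them.

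The share of closed regions was highest on chromosome 20, at 8.50% (34 of 400, 6.15 to 11.6), and lowest on chromosome 13, at 3.93% (24 of 610, 2.66 to 5.79). The intervals of these 2 chromosomes did not overlap, and they are the extremes of 22. On chromosome 3 the share was 7.25% (91 of 1255, 5.94 to 8.82). The share did not follow the GC content of the chromosome (Pearson's r 0.13, Spearman's rho 0.09, over 22 chromosomes that share the same libraries).

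**Figure D5:**
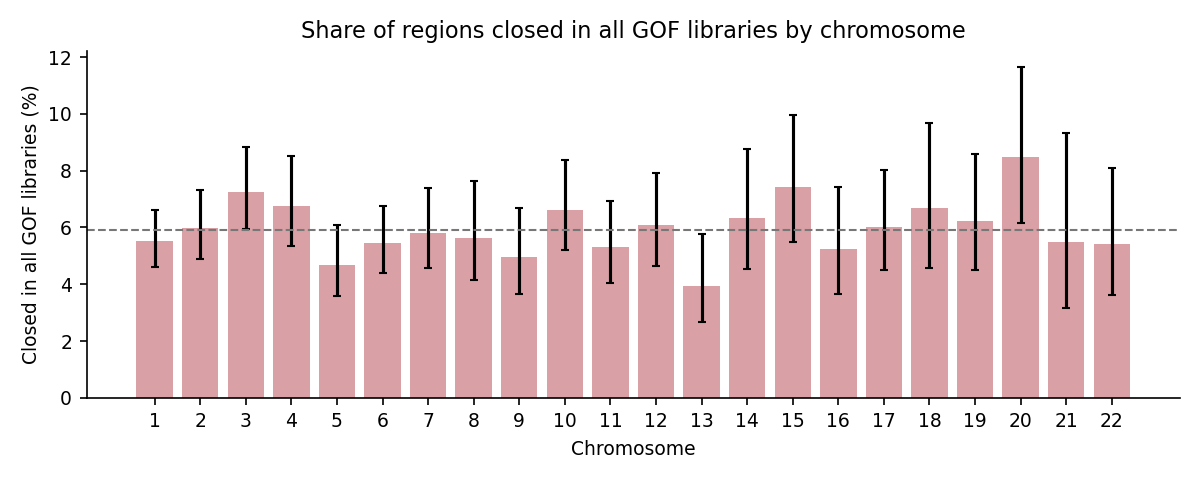
Share of non-promoter regions open in WT and LOF that were closed in all GOF libraries, by chromosome, with 95% Wilson intervals. The dashed line is the background of 5.90%, and the bars run from 3.93% on chromosome 13 to 8.50% on chromosome 20.

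Host genes of the closed regions were many and held few each. Of the 1088, 499 lay within 492 protein-coding genes, of which 460 held 1 closed region, 29 held 2 and 3 held 3. Of the 3 last, named after their values had been seen, LSAMP, a neuronal adhesion gene, had 3 of 6 regions closed and RGL1, a Ral exchange factor gene, 3 of 7. The 3 regions in LSAMP had a fold of 3.05 to 4.31 in WT and 3.41 to 4.83 in H689A/F667I. One region in RGL1 kept the pattern at an equal number of peaks, with a fold of 4.94 and 5.42 in WT and 4.38 and 4.17 in H689A/F667I. Host genes were of like length in the sets, with a median of 161.4 kb, against 177.6 kb for the kept regions of the same width and 153.9 kb for all.

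The promoters of the host genes were compared next. Of the 499 closed regions in a coding gene, 382 (76.6%, 72.6 to 80.1) had a host with a promoter region open in all 8 libraries, against 371 of 460 (80.7%, 76.8 to 84.0) kept regions of the same width and 75.9% of all 8331. This share depended on what counted as a peak: it was 30.3% with a −log10 q of at least 5, against 28.3% of the kept regions, and 36.6% where peaks had to cover 50% of a region, against 47.9%. With an equal number of peaks it was 66.7% against 59.5%, so the order of closed and kept regions turned with the setting. By nearest TSS the closed regions fell to 994 genes, of which 909 were nearest to 1, 78 to 2 and 7 to 3 or more. LSAMP was nearest to 5 closed regions, of 15 open in WT and LOF, and EBF1, GALNT7, GHITM, MEX3B, URB2 and ZMIZ1 to 3 each.

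Gene lists were read as hosts of closed regions against the background of 5.90%. One list holds the shared targets of the GOF lines named in the study, which were chosen partly on these libraries and are not independent of them. The genes of this list held 7 closed of 151 regions (4.64%, 2.26 to 9.26). These 7 lay in COL4A4, CTNNA3, FHOD3, HECW2, NRCAM, NRP2 and VAV3. In NRCAM, a neuronal adhesion gene, the fold was 6.15 and 5.80 in WT and 3.77 and 3.74 in H689A/F667I, so both lines differed without overlap. In HECW2, a ubiquitin ligase gene, it was 4.41 and 4.83 in WT and 4.65 and 4.63 in H689A/F667I. The region in NRP2, a semaphorin co-receptor gene, overlapped an exon and had a fold of 4.99 and 4.77 in WT and 4.80 and 3.595 in H689A/F667I.

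Axon guidance genes held 7 of 122 (5.74%), among them both regions of EPHA5, an ephrin receptor gene, and 1 of 8 in ROBO1, the receptor of SLIT. The EPHA5 regions had a fold of 2.86 to 3.55 in WT and 2.96 to 3.38 in H689A/F667I. Cadherin and adhesion genes held 6 of 151 (3.97%), 3 of them in LSAMP and the others in CTNNA2, CTNNA3 and NRCAM. Synapse genes held 4 of 88 (4.55%), among them 1 each in GRID1, DLGAP1 and GRIN2C. The region in GRID1, a delta glutamate receptor gene, had a fold of 4.48 and 4.96 in WT and 4.07 and 3.54 in H689A/F667I. Matrix and integrin genes held 3 of 91 (3.30%), in COL4A4, ITGA11 and LAMB1.

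Developmental transcription factor genes, many of which are known PRC2 targets, held 7 of 160 (4.38%, 2.14 to 8.75), with 2 each in EBF1, a B-cell factor, and FOXP1, a forkhead factor, and 1 each in ESRRG, PRDM16 and TBX5. The stronger FOXP1 region had a fold of 5.62 and 5.49 in WT and 4.17 and 5.15 in H689A/F667I. Genes of the Polycomb complexes held 0 of 23, which allows a share of up to 13.0%. Potassium channel genes had the highest share, 6 of 52 (11.5%, 5.40 to 22.97), in an interval that includes the background. KCNMA1, the large-conductance calcium-activated channel, held 2 of its 7. They had a fold of 4.14 and 6.17 in WT and 5.11 and 4.91 in H689A/F667I, and of 3.94 and 5.69 in WT and 4.44 and 5.94 in H689A/F667I. Further closed regions lay in KCNJ16, KCNN3 and KCNT2. In every list the interval of the share included 5.90%, so the closed regions were not shown to favour any of these genes.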

How the data were processed

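ATAC-Seq peak lists of 8 libraries from 4 HEK293T lines were used, with groups and replicate numbers taken from the sample titles. The submitters' processing notes name Trim Galore 0.6.5, BWA 0.7.17, MACS2 2.2.7.1, deepTools 3.5.1 and the build GRCh38/hg38. Per the study's methods, reads were trimmed, aligned and freed of duplicates, and peaks were called in each library. The deposited lists give, for each broad peak, a fold (the authors' ratio of fragment pileup over the local background), a −log10 p-value and a −log10 q-value. The score column of the deposited lists was not used. How reads were shifted for the transposase, and the filters on mitochondrial reads, repeats and mapping quality, are not given in the sources used here. The lists hold peaks with a −log10 q just above 1 and higher in each library.

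Peaks sharing at least 1 bp were merged (Python 3.11.15, numpy 2.4.6, pandas 2.3.3, scipy 1.17.1). Genes and TSS came from GENCODE 44. Where a region held several peaks of a library, width was their summed length, and fold and −log10 q were their highest values. Kept regions were matched to the closed regions without replacement on mean WT width, and 853 of 1088 pairs (78.4%) lay within 20 bp, with a largest gap of 149 bp. In the pairs within 20 bp the median fold was 3.67 against 4.81 and the median GC content 46.7% against 50.7%. No test was made, since the choice used all 8 libraries and a test of read counts needs counts that were not analysed here. Shares have 95% Wilson intervals, medians of GC content order-statistic intervals. Regions are not replicates.

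The members and gene lists were chosen with earlier results of these data known. Regions were named as the 10 closed regions of highest mean rank of fold in the WT and LOF libraries, genes as hosts of 4 or more closed regions (none qualified), genes of local groups of 3 or more within 100 kb, and list members that host a closed region. The readings at the same WT width in the other replicate, GC content within width, the motifs and the kept partners printed were picked with the data in view. Alternatives were a −log10 q of at least 5, an equal number of peaks per library, a cover of 50%, merging under 200 bp, a TSS distance of 2 kb, TSS of every gene type, other matching, other GC windows and cluster distances, and each library left out. The steps were checked on simulated peak lists. Some genes and 1 sequence covered by these rules are not reported here.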

Additional observations from a re-analysis of the deposited data

Results flagged for a closer look

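Chromosome X lay outside the choice of regions and was read in the same way. Of 594 non-promoter regions on chromosome X with a peak in all WT and LOF libraries, 27 had no peak in any GOF library (4.55%, 95% Wilson interval 3.14 to 6.53), against 5.90% on chromosomes 1 to 22. Their median WT width was 367 bp and their median GC content 47.3%, and 11 were intronic. They were singled out because they show the same pattern in peaks that no comparison above used. The interval includes the share on the other chromosomes.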

How the results depend on the processing

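No paired analysis was possible because no result comes from a test. The differences in WT width, WT fold and GC content stayed negative under every alternative run. The number of closed regions was 1088, or 5.90% of the non-promoter regions open in WT and LOF. It was 327 (9.40%) with a −log10 q of at least 5, so the count fell while the share rose. It was 134 (1.95%) with an equal number of peaks per library and 921 (11.8%) with a cover of 50%. With 1 library left out the count ranged from 1161 (6.30%) to 2352 (10.5%). It moved by over 1.5 times without A677G replicate 2 (2317, 12.6%), H689A/F667I replicate 1 (2352, 10.5%) or H689A/F667I replicate 2 (2255, 10.3%). The difference in WT width was −441.75 bp with an equal number of peaks, −310.25 bp with a cover of 50%, −323.5 bp with TSS of every gene type, −481.75 bp against kept regions matched on fold, and −387.5 to −279.5 bp with 1 library left out. The difference in WT fold was −0.739 with the stricter q, −0.424 with an equal number of peaks, −0.896 without matching, −0.481 with matching on the product of width and −log10 p, and −1.23 to −0.894 with 1 library left out. The difference in GC content was −1 point with the stricter q, and −2.67 to 1 by the interval of the closed median alone. It was −2.83 with an equal number of peaks, −2.33 with matching on that product, −2.36 over whole peaks, and −4.67 to −3.00 with 1 library left out. The intronic share was 34.6% with the stricter q, below the 36.7% of kept regions, 40.3% against 47.8% with an equal number of peaks, and 39.3 to 41.2% with 1 library left out. The share within 100 kb of another closed region was 4.89% with the stricter q, 1.49% with an equal number of peaks and 11.0 to 23.4% with 1 library left out, and passed 1.5 times its value without A677G replicate 1 (15.9%), A677G replicate 2 (23.4%), H689A/F667I replicate 1 (19.6%) or H689A/F667I replicate 2 (19.96%). It was 1.84% within 20 kb and 38.3% within 500 kb, against 5.70% and 47.2% of the kept regions of the same width. The share with an open host promoter was 30.3% with the stricter q, 66.7% with an equal number of peaks, 36.6% with a cover of 50% and 74.4 to 81.1% with 1 library left out. Fewer peaks pass the first 2 of these settings, and the cause of the other changes was not tested. The share closed in both GOF lines of the replicate not used for choosing averaged 58.6%, and 46.7 to 65.1% under the alternatives. The 2 readings behind the mean, 44.3% and 73.0%, swap the roles of the same libraries and are not replicates. Without read counts the lists cannot tell a weak signal from none, and since the lines differ in peak number, an effect of the line cannot be told apart from it.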
